A study of Mus musculus with 2 samples.

Results

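Retinoic acid pathway genes are described here in the incisor of wild-type (WT) and *Sox21* KO mice. They are 9 genes of the 36406 gene names on the array, chosen for their place in the pathway: *Aldh1a1*, *Aldh1a2*, *Aldh1a3*, *Cyp26a1*, *Cyp26b1*, *Crabp1*, *Crabp2*, *Rarb* and *Rarg*. Every probe that carries one of these names and is no control spot was taken, which gave 11 probes, 3 of them for *Rarb* and 1 for each of the other 8 genes. *Sox21* encodes a transcription factor of the SOX family, and the study asked what its loss does to enamel-forming cells of the tooth.

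Total RNA of WT incisor and of *Sox21* KO incisor was labelled with Cy3 and hybridized to 1-colour Agilent mouse gene expression arrays, with 1 array for each genotype. WT mice were C57BL/6J per the methods, and *Sox21* KO mice were a gifted knockout line, whose strain background and deleted bases are not given in the sources used here. The labels put both samples at postnatal day 0, whereas the methods name the following day, and how many animals went into a sample is not given in the sources used here. The methods name a soft diet for *Sox21* KO mice, with no age, and no treatment is named for either group. Both *Sox21* probes were lower on the KO array, with processed signals of 1362 in WT and 659 in KO at one probe, and of 286 and 103 at the second. Whether these probes lie inside the deleted bases is not given in the sources used here, so they check the labels only in part.

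Retinoic acid is a small lipid made from vitamin A. Retinol is oxidized to retinaldehyde by retinol dehydrogenases, and retinaldehyde is oxidized to retinoic acid by the ALDH1A enzymes. CRABP proteins bind retinoic acid in the cytoplasm, CYP26 enzymes oxidize and clear it, and receptors of the RAR family, paired with RXR receptors, bind it on DNA. *Rarb* and *Cyp26a1* are textbook direct targets of these receptors, so the pathway both reads and limits its own signal. In developing teeth and other craniofacial tissue, source and clearing enzymes are known to be expressed in separate domains.

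The probes are oligonucleotides of 60 bases, and the sequences of those on which the comparisons turn are shown by their first 30 bases, in lower case with no part marked. They are the probes of the 3 genes whose values lay farthest apart between the arrays and the 3 probes of *Rarb*, which target different stretches of that gene.

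Cyp26b1: gttcgtgtgtctcgttgtggtagcattaat
Crabp1: gtttacccacgtgggagaatgagaacaaga
Crabp2: ctgtctctctggcctctactccttatcctt
Rarb (1): gctttctatgttcatatactgtttaccttt
Rarb (2): aattctgaaggacatgaacccttgacccca
Rarb (3): tattgagcctgtttgcacacactcaccacc

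In mm9, the build that the scanner files name, the *Cyp26b1* probe lies at chr6:84521952-84522011 on the minus strand and starts at base 4147 of the transcript it was designed on. The *Crabp1* probe lies at chr9:54616192-54616251 on the plus strand, from base 344 of its transcript. The *Crabp2* probe lies at chr3:87757207-87757266 on the plus strand, from base 812. The 3 *Rarb* probes lie on the minus strand of chromosome 14. *Rarb* (1) is at chr14:17263367-17263426, from base 2701 of its transcript, and *Rarb* (2) at chr14:17264648-17264707, from base 1420 of the same transcript. *Rarb* (3) is at chr14:17651424-17651483 and starts at base 36 of an mRNA that the file describes as the RAR-beta 1 isoform. Exon and UTR annotation of mm9 was not used here.

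Of the 11 probes, 10 were well above background on both arrays by the scanner's own mark, and these are called measured. *Cyp26b1*, which clears retinoic acid, was 1.6-fold higher on the KO array, and both cytoplasmic binding proteins, *Crabp1* and *Crabp2*, were lower there. The other 7 measured probes, from *Aldh1a1*, *Aldh1a2*, *Aldh1a3*, *Cyp26a1*, *Rarb* and *Rarg*, had log2 ratios between -0.12 and 0.24. With 1 array per genotype no difference has a replicate check and no test was possible, so a difference cannot be told apart from the spread between mice, dissections or labelling reactions.

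For a scale, 2 measures of error within an array were available. The scanner software gives each processed signal an error, and 274 probes that are spotted 3 or more times on each array had a median SD of 0.09 for the log2 ratio between spots of the same probe, with a 90th percentile of 0.25. Multiples of this SD below are of the median, and against the 90th percentile no pathway probe was 3 times as far from 0. Neither covers differences between animals. In bulk RNA, fewer cells of a type and less RNA per cell cannot be told apart. Signals are given as the processed intensity, and log2 ratios as KO minus WT after each signal was divided by the 75th percentile of its array, 268 on the WT array and 276 on the KO array.

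**Figure D1:**
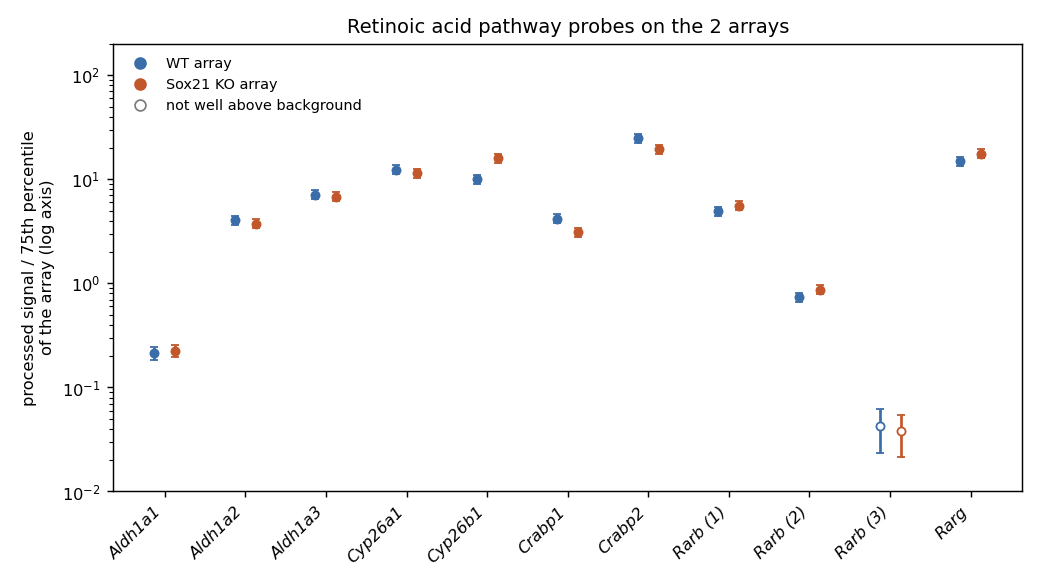
Normalized signal (processed signal divided by the 75th percentile of the array, log axis) of the 11 retinoic acid pathway probes on the WT array (blue) and the *Sox21* KO array (orange), with the scanner's error as bars; open points are not well above background. *Cyp26b1* stands at 10.1 on the WT array and 16.1 on the KO array, and both arrays leave *Rarb* (3) near the floor; heights of different probes are not comparable with each other.

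The ALDH1A enzymes carry out the last step of retinoic acid synthesis. *Aldh1a1*, known from eye and other adult epithelia, gave 57.2 ± 7.61 (scanner error) on the WT array and 62.4 ± 7.72 on the KO array, for a log2 ratio of 0.08 ± 0.26. *Aldh1a2*, the main retinoic acid source in the embryonic mesoderm, gave 1090 ± 109 and 1035 ± 104, a log2 ratio of -0.12 ± 0.20. *Aldh1a3*, known from craniofacial and sensory epithelia, gave 1916 ± 192 and 1882 ± 188, a log2 ratio of -0.07 ± 0.20. All 3 pairs of values lay within the scanner's error of each other, and none was farther apart than 1.3 times the SD of repeat spots. The sign of *Aldh1a1* and *Aldh1a3* also depended on the scaling or background correction, with ranges over the alternatives of -0.02 to 0.16 and -0.08 to 0.01, so no direction is given for these enzymes. The 3 probes lie in mm9 at chr19:20717764-20717823, chr9:71143931-71143990 and chr7:73535785-73535844.

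The widest spread within a family was between the CYP26 enzymes. *Cyp26a1*, the clearing enzyme that retinoic acid itself induces, gave 3319 ± 332 on the WT array and 3138 ± 314 on the KO array, for a log2 ratio of -0.12 ± 0.20. *Cyp26b1*, the form known for clearing retinoic acid in skin, limb and craniofacial mesenchyme, gave 2697 ± 270 and 4427 ± 443, a log2 ratio of 0.67 ± 0.20. The scanner's 95% interval for *Cyp26b1* ran from 0.27 to 1.07 and did not include 0. The 2 log2 ratios differed by 0.80, with the higher one at *Cyp26b1*. *Cyp26b1* lay 7.8 times the SD of repeat spots from 0, and 4.66% of all measured probes were at least as far apart. Its log2 ratio stayed between 0.62 and 0.75 under every scaling, background correction and filter tried. The *Cyp26a1* probe lies at chr19:37775566-37775625 (mm9, plus strand).

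CRABP proteins carry retinoic acid inside the cell, *Crabp2* towards the nuclear receptors. *Crabp1* gave 1122 ± 112 on the WT array and 856 ± 85.7 on the KO array, 1.35-fold higher in WT, with a log2 ratio of -0.43 ± 0.20 and a 95% scanner interval of -0.83 to -0.03. *Crabp2* gave 6655 ± 666 and 5373 ± 537, 1.27-fold higher in WT, with a log2 ratio of -0.35 ± 0.20 and an interval of -0.75 to 0.05. Both genes were thus lower on the KO array, but the interval of *Crabp2* included 0 and that of *Crabp1* ended close to it. They lay 5.0 and 4.1 times the SD of repeat spots from 0, and 13.6% and 20.0% of all measured probes were at least as far apart. Under the alternatives *Crabp1* ranged from -0.46 to -0.36 and *Crabp2* from -0.37 to -0.28.

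The receptors showed small differences above 0. *Rarg*, the receptor known from epidermis and cartilage, gave 4023 ± 402 on the WT array and 4864 ± 486 on the KO array, for a log2 ratio of 0.23 ± 0.20 (chr15:102065371-102065430 in mm9). *Rarb* (1) gave 1328 ± 133 and 1543 ± 154, a log2 ratio of 0.18 ± 0.20, and *Rarb* (2) gave 197 ± 20.4 and 240 ± 24.5, a log2 ratio of 0.24 ± 0.21. The 2 measured *Rarb* probes target the same transcript and so count as one gene, and their ratios differed by less than the SD of repeat spots. *Rarb* (3), designed on the RAR-beta 1 mRNA, gave 11.5 ± 5.18 and 10.5 ± 4.60 which is not well above background in WT or in KO, and has no ratio. None of the 3 measured receptor probes reached 3 times the SD of repeat spots, and each scanner interval included 0. Their log2 ratios stayed above 0 under every alternative, from 0.15 to 0.25 for *Rarb* (1), from 0.19 to 0.32 for *Rarb* (2) and from 0.22 to 0.31 for *Rarg*.

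**Figure D2:**
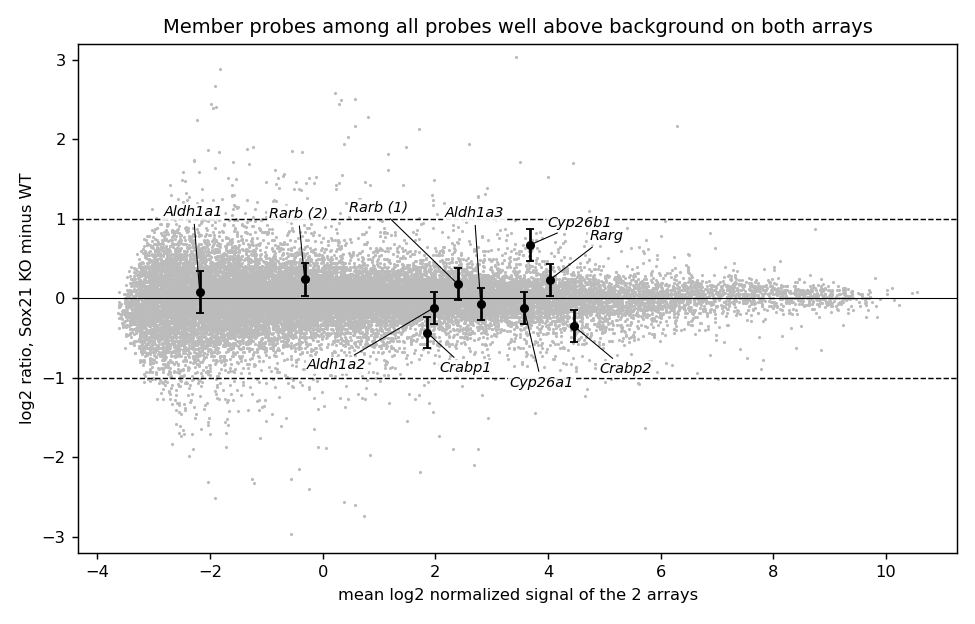
Log2 ratio (*Sox21* KO minus WT) against the mean log2 normalized signal of the 2 arrays for all 25945 measured probes (grey) and the 10 measured retinoic acid pathway probes (black, bars are the scanner's error of the ratio); dashed lines mark 2-fold. *Cyp26b1* at 0.67 lies in the upper part of the grey cloud, with other probes above it at a similar signal, *Crabp1* and *Crabp2* lie in its lower part, and no pathway probe reaches 2-fold.

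The 10 measured probes were read against the whole array. Of all measured probes, 1.43% were at least 2-fold apart, and 0 of the 10 pathway probes were. At 1.5-fold the share was 6.9% of all measured probes, and *Cyp26b1* was the 1 pathway probe past it, in the direction that held 3.03% of all measured probes. Above 0 lay 5 of the 10, beside 49.9% of all measured probes. *Cyp26b1*, *Crabp1* and *Crabp2* were the 3 probes farther than 3 times the SD of repeat spots from 0, beside 30.6% of all measured probes. The median log2 ratio of the pathway probes was 0.01 and the median size without sign 0.20, where all measured probes had -0.00 and 0.16. By gene, 4 of the 9 were higher on the KO array in every measured probe and 5 were lower, with *Aldh1a1* and *Aldh1a3* changing side under an alternative.

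**Figure D3:**
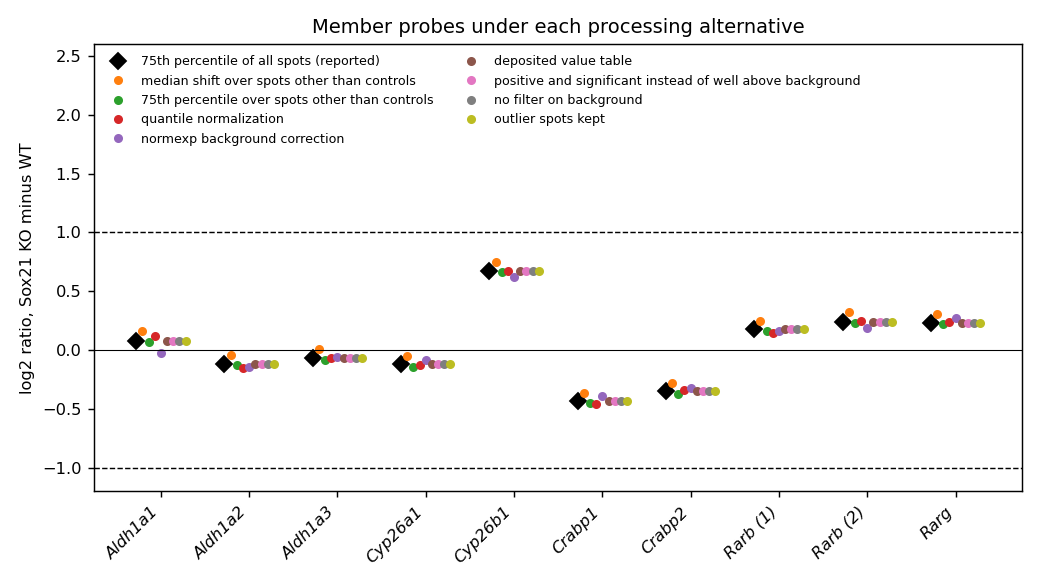
Log2 ratio (*Sox21* KO minus WT) of the 10 measured retinoic acid pathway probes as reported (black diamonds) and under each processing alternative (coloured points); dashed lines mark 2-fold. The points of *Cyp26b1* span 0.62 to 0.75 and those of *Crabp1* -0.46 to -0.36, while *Aldh1a1* and *Aldh1a3* have points on both sides of 0.

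The receptors bind DNA as a pair, and the elements known for them are 2 copies of a short half-site in the same orientation, most often spaced by 5 bases. The 250 bases before the annotated start sites of the pathway genes were searched on both strands for pairs built from the half-site AGGTCA, its known variant AGTTCA, another known variant GGGTCA or the further variant GGTTCA, with spacers of 5, 2 or 1 bases. Sequences were those of RefSeq for GRCm38.p6, which held 9 promoters of 7 of the 9 genes. A pair spaced by 5 bases was present in 2 of these genes, *Rarb* and *Cyp26a1*, and in 32 of all 32851 promoters of the same length, or 0.0974%. Both genes are textbook direct targets, and the variants searched include the half-sites of their matches. The presence of a pair in these 2 genes is therefore no independent result, and enrichment was not tested. Pairs spaced by 2 or 1 bases, present in 0.268% and 0.222% of all promoters, were in 0 of the 7 genes. Both sequences are shown because these are the pathway members whose start site holds such a pair, with the 17 matching bases in capitals.

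Rarb: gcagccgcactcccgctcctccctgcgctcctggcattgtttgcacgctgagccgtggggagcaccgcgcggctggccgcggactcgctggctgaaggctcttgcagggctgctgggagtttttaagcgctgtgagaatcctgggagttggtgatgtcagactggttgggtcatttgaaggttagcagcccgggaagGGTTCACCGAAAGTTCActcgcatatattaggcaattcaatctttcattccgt
Cyp26a1: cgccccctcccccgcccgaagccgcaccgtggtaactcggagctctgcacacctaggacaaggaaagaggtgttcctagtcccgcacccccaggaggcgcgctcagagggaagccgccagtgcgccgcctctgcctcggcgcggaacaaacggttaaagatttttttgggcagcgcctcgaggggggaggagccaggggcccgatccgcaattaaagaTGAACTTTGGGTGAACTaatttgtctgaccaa

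The *Rarb* window is chr14:16575477-16575726 on the minus strand of GRCm38.p6, at a start site 507 kb inside the gene from its annotated 5′ end, and its match begins 53 bases before that start site on the coding strand. The *Cyp26a1* window is chr19:37697558-37697807 on the plus strand, and its match begins 32 bases before the start site and reads on the opposite strand. A match describes the letters of the window and not a bound site. The 2 genes had log2 ratios of 0.18 (*Rarb* (1)) and -0.12 (*Cyp26a1*), on different sides of 0 and each within the scanner's error. *Rarb* (2) gave 0.24 ± 0.21, just past its error. Among all genes with such a pair and a measured probe, 5 in number, 0 were 2-fold apart and the median log2 ratio was 0.18. These 5 include *Rarb* and *Cyp26a1*, and the median is the value of *Rarb* (1) itself.

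Other genes of the pathway were read from 5 lists with 58 genes in all, each gene by its brightest measured probe. Of these, 38 were measured, 20 above 0 and 18 below, where 52.4% of all measured genes were above 0. The lists had a median log2 ratio of 0.02 and a median size without sign of 0.12, beside 0.01 and 0.15 for the 13796 measured genes of the array. At least 2-fold apart were 2 genes, both higher on the KO array, or 5.26% of those measured, where 1.41% of all measured genes were 2-fold apart and 0.739% were 2-fold higher. The lists were chosen with earlier results of these data known, so these shares are no test of enrichment.

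The list of retinol supply and oxidation held 20 genes, of which 10 were measured, 3 above 0 and 7 below, with a median log2 ratio of -0.04 and 0 genes 2-fold apart. *Rdh10*, which makes retinaldehyde in the embryo, had the highest ratio of the list, 110 on the WT array and 150 on the KO array (log2 0.41). *Rdh5*, a retinol dehydrogenase known from the retinal pigment epithelium, had the lowest, 118 and 90.5 (log2 -0.43). Background correction by the normal-exponential model brought these to 0.23 and -0.32. *Adh1* was measured on the WT array alone, at 32.2 ± 6.37 and 19.6 ± 5.24 on the KO array, with a bound of 1.69-fold lower in KO. *Rdh1* was measured on the KO array alone, with a bound of 1.13-fold higher there. Its signals, 20.2 ± 5.08 in WT and 24.7 ± 5.01 in KO, lay within each other's error. A bound is the bright array's normalized signal over the higher of the dim signal and the dim array's lowest signal well above background. That lowest signal was 21.3 in WT and 19.5 in KO, in processed units. Where the dim signal is the higher, as for *Adh1*, the bound is the observed ratio and no lower limit. A bound leaves out the errors of both signals. The other 8 genes, among them *Lrat*, *Ttr* and *Rpe65* of retinol storage, transport and the visual cycle, were measured on neither array. The other clearing enzymes, *Cyp26c1* and *Cyp2c39*, were also measured on neither array.

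The other nuclear receptors and their binding partners numbered 6, all measured. *Rara*, the broadly expressed RAR, had the lowest log2 ratio of the list, 0.04 ± 0.20, and *Rxrb*, an RXR partner, the highest, 0.14 ± 0.20. Every gene of the list lay within the scanner's error of 0 by its brightest probe. The dimmer probe of *Rxra* gave 29.5 on the WT array and 54.3 on the KO array (log2 0.84 ± 0.38), against 0.08 for its brighter probe. The dimmer probes of *Rara* and *Rxrg* gave -0.16 and -0.36, on the other side of 0 from their brighter ones.

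The list of coregulators, which link the receptors to chromatin enzymes and to the transcription machinery, held 11 genes, all measured, 6 above 0 and 5 below, with a median log2 ratio of 0.02. *Ncoa2*, a coactivator, was highest at 0.29, from 1096 to 1383. *Med1*, the Mediator subunit that binds nuclear receptors, was lowest at -0.24, and its 4 probes ran from -0.24 to 0.14. No gene of the list was 2-fold apart.

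Genes known to respond to retinoic acid in other tissues numbered 19, of which 11 were measured, 5 above 0 and 6 below, with a median log2 ratio of -0.03. Both genes past 2-fold were in this list, and both encode homeodomain proteins of the same family that are known to be induced by retinoic acid in limb and neural tissue. *Meis1* gave 272 ± 27.6 on the WT array and 665 ± 66.7 on the KO array, 2.38-fold higher (log2 1.25 ± 0.21). *Meis2* gave 145 ± 15.4 and 431 ± 43.4, 2.89-fold higher (log2 1.53 ± 0.21). Across the alternatives *Meis1* stayed between 1.05 and 1.32 and *Meis2* between 1.14 and 1.61. *Rarres1*, named for its response to retinoids, was measured on the KO array alone, 14.2 on the WT array and 46.2 on the KO array, at least 2.11-fold higher. The lowest measured ratio was that of *Nr2f1*, an orphan nuclear receptor, with -0.61 by one probe and -0.29 by the other. *Tgm2*, a transglutaminase, had probes on both sides of 0, at -0.09 and 0.11. *Fgf8* was at least 1.46-fold lower by its brightest probe, and 6 genes, among them *Stra8* and *Cdx1*, were measured on neither array.

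**Figure D4:**
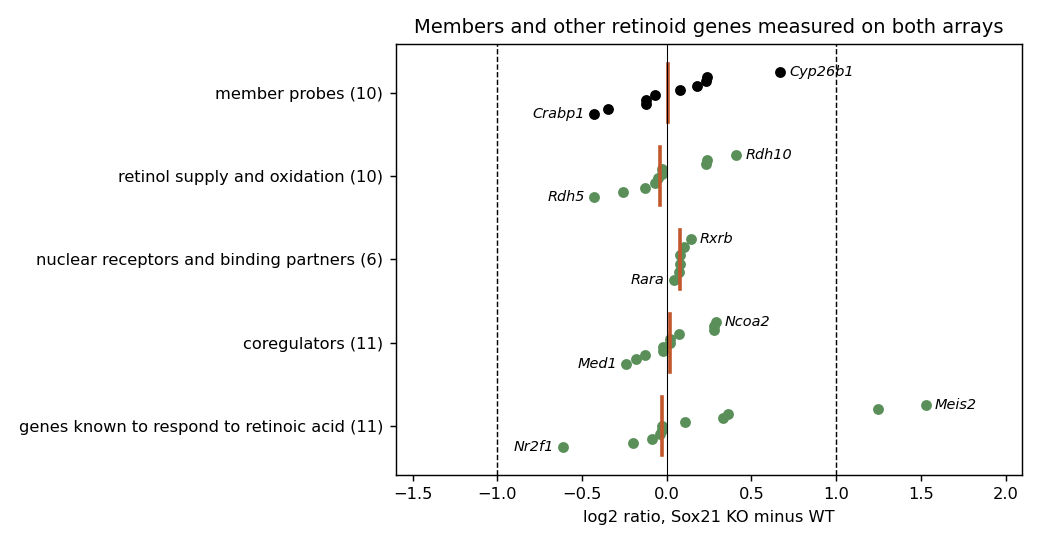
Log2 ratio (*Sox21* KO minus WT) of the 10 measured retinoic acid pathway probes (black) and of the measured genes of 4 further retinoid lists by their brightest probe (green), with the number of points in brackets; orange bars are medians and dashed lines mark 2-fold. The medians lie between -0.04 and 0.08, and 2 points, *Meis1* at 1.25 and *Meis2* at 1.53, lie past 2-fold.

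Markers of 15 cell types that an incisor dissection can hold were read by the brightest measured probe of each gene. Each list is given by its counts and its median log2 ratio, and its summed normalized level is dominated by its brightest probes, which can differ in direction from the median. All 7 ameloblast markers were measured, so the defining genes of the labelled tissue were present. On the KO array 2 were higher and 5 lower, with a median of -0.62 and a sum of 3160 in WT and 2870 in KO. At least 2-fold lower were 2 of them, *Amtn* (-1.89) and *Klk4* (-1.05), where 1.41% of all measured genes were 2-fold apart. Of the dental mesenchyme markers, 9 of 9 were measured, 7 higher and 2 lower (median 0.17, sums 1300 and 1510), and of dental and oral epithelium 7 of 7, 5 higher and 2 lower (median 0.18, sums 567 and 663). Odontoblast markers, 4 of 4, were 3 higher and 1 lower (median 0.42), but their sums were close, 119 and 122.

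Skeletal muscle markers, 4 of 5 with *Myod1* on neither array, were 1 higher, *Myh3*, and 3 lower (median -0.59, sums 57.6 and 40.1), and neuron markers, 3 of 3, were 1 higher and 2 lower (median -0.44, sums 66.3 and 48.5). Bone markers, 5 of 5, were all above 0 (median 0.13, sums 160 and 210), as were the 3 of 4 measured cartilage markers, with *Matn1* on neither array (median 0.36, sums 13.3 and 20.9). The 3 of 5 cornified skin markers measured on both arrays, with *Ivl* on neither, were higher in KO (median 1.15, sum 2.03 times as high). Of these, 2 were at least 2-fold higher, beside 0.739% of all measured genes. *Flg*, measured in KO alone, was 5.18-fold higher there as an observed ratio (23.7 ± 5.56 in WT and 126 ± 13.5 in KO). Of the 3 of 4 hair follicle markers measured on both arrays, 2 were at least 2-fold higher, beside 0.739% of all measured genes, and 1 was lower (median 1.13), while their sum was 0.773 times that of WT. The fourth, *Krt71*, was measured in WT alone and was at least 2.34-fold lower in KO. Macrophage (3 of 4, median 0.33, sums 33.7 and 42.3), melanocyte (3 of 4 with *Mlana* on neither array, median 0.44, sums 2.49 and 3.71) and erythroid markers (4 of 4, median -0.14, sums 246 and 203) completed the lists that differed in sum. The sums of endothelial markers (4 of 4, median 0.35) were 50.1 on both arrays, and those of Schwann and neural crest glia (3 measured, median -0.05) were 7.39 and 7.32. The part of tissue composition in the differences of *Cyp26b1*, *Crabp1*, *Crabp2*, *Meis1* and *Meis2* was not tested.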

How the data were processed

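Both arrays are Agilent SurePrint G3 Mouse GE arrays of 62976 spots. The authors' scanner software, Agilent Feature Extraction 10.7.3.1 per the labels, subtracted background within each array and wrote a processed signal intensity with its error, which the authors deposited beside raw intensities of spot and surround. A deposited table of ratios holds each processed signal over 1 number per array, after a percentile shift named in the methods. No spot was saturated (0 on either array).

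From the deposited intensities, log2 of the processed signal over the array's 75th percentile of all spots was computed and averaged over the spots of a probe. Left out were 267 spots marked as outliers, none of them a pathway probe, and 55679 probes remained, 25945 of them well above background on both arrays. Other genes took symbols from RefSeq (GRCm38.p6). The 95% scanner intervals assume that the errors of both arrays are independent, and they cover error within an array only. The number of arrays limits the precision, and no test was run. The members and lists were chosen with earlier results of these data known. Named were the members with every probe, *Sox21*, and from each of the 5 retinoid lists the highest and lowest measured gene, genes at least 2-fold apart or with a bound of 2-fold, and genes whose probes lie on different sides of 0 beyond the spread of repeat spots. Genes named for other reasons (among them *Fgf8*, *Adh1*, *Rdh1*, the marker genes and the dimmer probes of the receptors) were chosen after their values were seen. Alternatives covered the scaling, background correction (normal-exponential, offset 50), the source of the values, the filter on dim probes, outlier spots, the threshold and the choice of probe. The steps were tested on simulated data. Python 3.11.15, numpy 2.4.6, pandas 2.3.3, matplotlib 3.10.9, R 4.3.3 and limma 3.58.1 were used.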

Additional observations from a re-analysis of the deposited data

How the results depend on the processing

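No paired analysis was possible because each genotype has 1 array. The count of pathway probes at least 2-fold apart stayed at 0 under every other scaling, correction and filter, and became 1 (*Cyp26b1*) at 1.5-fold. Their median log2 ratio ranged from -0.07 to 0.08, and that of the 5 retinoid lists from -0.03 to 0.09. The median of all measured probes moved as well. It was 0.07 with each array shifted to its median, where the pathway probes had 0.08, and -0.14 with no filter, where they had -0.07. With no filter on background, 4 genes of the lists were 2-fold higher and 1 was 2-fold lower, in place of 2 and 0, as dim probes enter, and with the scanner's weaker mark 3 were higher and 0 lower. Over all probes, 164 were 2-fold higher and 206 lower. These counts became 206 and 156 when each array was shifted to its median, 74 and 65 with normal-exponential background correction, 788 and 1164 with the scanner's weaker mark, 1576 and 2466 with no filter, and 786 and 1004 at 1.5-fold. Of the single values, the normal-exponential correction moved *Aldh1a1* to -0.02, *Meis1* to 1.05, *Meis2* to 1.14 and *Nr2f1* to -0.46. Signal over background limits the dim probes, since *Aldh1a1* at 57.2 on the WT array has a scanner error of 0.26 on its log2 ratio, against 0.20 for the bright pathway probes.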

Other observations

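Probes outside the members and lists whose description contains retinol, retinoic or retinoid numbered 21, for 19 gene names. Of these, 13 were measured on both arrays, 8 above 0 and 5 below, with a median log2 ratio of 0.04 and 0 at least 2-fold apart. The value farthest from 0 was that of *Rdh19*, a member of the retinol dehydrogenase family by its name, with a processed signal of 24044 on the WT array and 14156 on the KO array (log2 ratio -0.81). *Retsat*, retinol saturase, gave 256 and 305, a log2 ratio of 0.21, and *Rdh9* gave 56.2 and 67.4, a log2 ratio of 0.22. These values were looked up after the rest had been seen.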
